A study of Mus musculus with 8 samples.

Results

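The genes described here are the 237 solute carrier genes, other than the mitochondrial Slc25 family, in a table of nascent transcription for 14861 mouse genes. They were chosen by name: every gene whose symbol begins with Slc, a family number and a letter was taken, and the Slc25 genes, Slc2a1, Slc2a3 and Slc7a11 were left out. They make up 1.59% of the table and fall into 46 families. Of the 237, 235 had a mean signal of at least 0.5 over the table's columns. Slc5a12 and Slc4a1 lay under that minimum.

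The study followed transcription in mouse induced pluripotent stem cells as they left mitosis. The cells were a clonal line with the FUCCI2 cell cycle reporter, grown on irradiated feeder cells in KO-DMEM with FBS, LIF and 2i, the pair of inhibitors of MEK and GSK3, and all 4 groups share this background and medium. Mitotic cells were collected by shake-off after nocodazole, a drug that stops spindle assembly, at 200 ng/ml for 6 h. Early and late G1 cells were such mitotic cells given fresh medium for 1 h and 3 h, and asynchronous cells were left untreated. Transcription was measured by PRO-seq, which maps the 3' ends of RNA that engaged RNA polymerases extend in isolated nuclei. There were 8 libraries, 2 for each group, but the table gives 1 combined value per group, so no difference below has a replicate check, a spread or a test, and depth is unknown. The 1 h and 3 h releases were matched by meaning to the columns called early and late G1.

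Every value below is the authors' deposited normalized signal, and the sources used here do not say whether it is scaled by gene length. Levels of different genes are therefore compared only to set minimums and ranges of signal, to call genes low and to choose examples. Those uses carry this limit. A gene's ratio between columns is the quantity described. Ratios are log2 of (signal + 0.1), a difference is counted when it reaches 2-fold, and 6 members with a column listed at 0 have no ratio that uses that column. The number 0.1 is added because many mitotic values are near 0, and it understates the change of low genes.

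Known pluripotency genes checked the cell type. Of 8 such markers, 7 are in the table, and all 7 had signal in every column. Sox2 had a signal of 13.6 in mitosis, 299 early and 317 late in G1, and 226 in asynchronous cells. Pou5f1 had a signal of 3.90 in mitosis and 113, 80.0 and 139 in early G1, late G1 and asynchronous cells. Early G1 was the highest column for 2 of the 7, late G1 for 2 and the asynchronous column for 3, so the markers did not move one way. The feeder layer was checked with 15 fibroblast markers, of which 8 are in the table. Their summed signal was 1.71 in mitosis, 40.8 early and 76.8 late in G1, and 38.7 in asynchronous cells. Of the 8, 6 were higher by at least 2-fold in late than in early G1 (75%, against 15.1% of all tested genes). Loxl1, one of the 6, weighed most in the rise of the sum, with 11.6 early and 30.6 late in G1. Twist1 (5.91 and 7.90) stayed within 2-fold, and Vim went the other way (14.8 and 9.79). The collagen gene Col1a1 had a signal of 0.0865 in mitosis and 1.97, 9.37 and 5.44 in early G1, late G1 and asynchronous cells. None of the defining markers in the table was at 0 in G1 or asynchronous cells, and Twist1 was listed at 0 in mitosis. Whether feeder RNA took part in the differences between early and late G1 below was not tested. In such bulk samples, fewer cells of a type and less RNA per cell cannot be told apart.

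Solute carriers are membrane proteins that move small molecules across the plasma membrane and the membranes of organelles, either down a gradient or by coupling uptake to sodium, protons or an exchanged solute. Each family takes a class of substrates, so the genes were placed in 10 groups by substrate. Dividing pluripotent cells are known for a high demand for amino acids, glucose, nucleosides and one-carbon vitamins, while many other carriers are best known from kidney, gut, liver or neurons.

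RefSeq promoter windows on build GRCm38.p6 started close to the table's start site for 166 of the 237 members. Short motifs were searched on both strands of these windows. The background is the 10515 genes of the table with such a window, and all 32851 RefSeq promoters, which include genes absent from the table, are given second. The letters TATAAA were in 16 member promoters (9.64%), in 6.89% of the table's genes and in 13.6% of all promoters, so members lay above one background and below the other. The metal response element, TGCACNC or TGCGCNC, was in 61 member promoters (36.7%), in 36.7% of the table's genes and in 25.7% of all promoters, so members held it as often as other genes of the table. The median number of CpG dinucleotides was 18 in members' windows, 21 in those of the table's genes and 7 in all windows. TCACGTGA, the element read by lysosomal gene regulators of the TFEB type, was in 3 member promoters (1.81%), those of Slc36a1, Slc35a5 and Slc37a3, in 1.89% of the table's genes and in 0.974% of all promoters. TGATGNAAT, the C/EBP-ATF composite element of amino acid stress, was in 1 member promoter (0.602%), that of the ascorbate family gene Slc23a3, in 0.399% of the table's genes and in 0.965% of all promoters.

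In 4 of the 16 TATAAA promoters a match on either strand began between 15 and 40 bases before the annotated start. These 4 are shown, because genes with the motif are compared below, with the 60 bases before the start, 5' to 3' on the gene's strand, and the motif on either strand in capitals. Slc26a9 is a chloride channel and transporter of epithelia (chr1:131743962-131744021, plus strand), and Slc12a3 is the sodium chloride cotransporter of the kidney (chr8:94329148-94329207, plus strand). Slc13a2 carries citrate and other dicarboxylates (chr11:78422235-78422294, minus strand), and Slc3a1 is the heavy chain of the renal cystine transporter (chr17:85028287-85028346, plus strand). The matches in Slc26a9 and Slc3a1 are overlapping matches on both strands. Those in the printed stretch of Slc3a1 begin 20 and 18 bases before the start, and the match in Slc13a2 is on the reverse strand. Whether any of these is a TATA box was not tested.
Slc26a9: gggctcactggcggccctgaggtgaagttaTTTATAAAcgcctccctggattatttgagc
Slc12a3: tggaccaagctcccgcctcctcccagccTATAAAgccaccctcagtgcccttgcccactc
Slc13a2: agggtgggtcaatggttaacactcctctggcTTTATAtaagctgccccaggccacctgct
Slc3a1: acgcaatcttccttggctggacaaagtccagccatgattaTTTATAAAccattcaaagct

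The zinc exporter Slc30a1, a classic target of the metal-responsive factor MTF1, is shown for its metal response elements. Its window held 2 matches, one that begins 43 bases before the start, in capitals on the reverse strand (chr1:191906721-191906780, plus strand), and one 30 bases after it, outside the stretch printed. Among the divalent metal carriers, 11 of 21 promoters (52.4%) held such an element, against 36.7% of the table's genes. The share was higher in neurotransmitter and osmolyte carriers (5 of 8, 62.5%) and lower in amino acid and peptide carriers (4 of 27, 14.8%). A match is a run of letters and no evidence of binding.
Slc30a1: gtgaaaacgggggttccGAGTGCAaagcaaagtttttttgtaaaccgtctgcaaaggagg

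In mitosis nearly every solute carrier gene was low. Of 231 members with a ratio, 228 (98.7%) were at least 2-fold lower in mitosis than in asynchronous cells, and 99.1% of all tested genes were. No member was at least 2-fold higher, against 0.0208% of all tested genes. The median member kept 4.95% of its asynchronous signal, with quartiles of 3.67% and 7.52%, and the median gene kept 5.36%. The median log2 ratio was -3.88 for members and -3.89 for all genes. Because all genes shift together here, members were also set against the median gene. On that scale 40 members were at least 2-fold above the median gene (17.3% of members, against 11.7% of all genes tested) and 14 were at least 2-fold below it (6.06%, against 6.29%). With the columns scaled to equal medians before the ratio, 26 members were at least 2-fold higher in mitosis and 19 lower. These are 11.3% and 8.23% of members, against 9.61% and 7% of all genes. With quantile normalization 24 were higher and 15 lower (10.4% and 6.49%, against 8.58% and 6.72% of all genes). With a minimum mean signal of 2.5, 16 of 182 members were at least 2-fold above the median gene, against 7.12% of all genes tested.

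Of the 231 members with a ratio, 9 kept at least 20% of the asynchronous signal in mitosis, and 2.71% of all such genes did. The 9 are the dicarboxylate carrier Slc13a3, the zinc carrier Slc39a7, Slc4a11, the iodide carrier Slc5a5, the phosphate carrier Slc34a3, the serotonin carrier Slc6a4, the UDP-galactose carrier Slc35a2, the organic anion family gene Slc22a13 and the thiamine carrier Slc19a2. They were named after their values were seen. Slc34a3 kept the most, with a mitotic value above its asynchronous one, and had a low signal in every column, 0.727 in mitosis, 6.20 early and 5.51 late in G1, and 0.406 in asynchronous cells. Slc19a2, which brings thiamine into the cell, had a signal of 4.28 in mitosis and 54.9, 44.5 and 15.5 in early G1, late G1 and asynchronous cells, and so kept 27.6%. Slc39a7, which releases zinc from the endoplasmic reticulum and Golgi, had a signal of 4.91 in mitosis, 64.7 early and 38.0 late in G1, and 21.1 in asynchronous cells, and kept 23.3%. Its start site lies 130 bp from that of Rxrb, which runs the other way and had a signal of 0.889 in mitosis and 20.8, 14.4 and 19.3 in early G1, late G1 and asynchronous cells. Rxrb kept 4.62% of its asynchronous signal, so the pair differed in the share kept.

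At the other end, the sugar carrier Slc50a1 had a signal of 0.517 in mitosis, 34.5 early and 38.2 late in G1, and 36.9 in asynchronous cells, so 1.40% was kept in mitosis. Slc1a5, the neutral amino acid exchanger that takes up glutamine, had a signal of 1.65 in mitosis and 34.2, 24.1 and 64.1 in early G1, late G1 and asynchronous cells, and kept 2.57%. Slc3a2, the heavy chain that carries Slc7a5 and its relatives to the cell surface, had a signal of 3.39 in mitosis, 72.0 early and 69.5 late in G1, and 112 in asynchronous cells, and kept 3.03%. These 3 stood at -2.01, -1.31 and -1.11 on the log2 scale relative to the median gene, and Slc3a2 was within 2-fold of it with equal medians (-0.82) and with quantile normalization (-0.84). By substrate, the amino acid carriers had 8 of 41 genes at least 2-fold above the median gene and 4 below it. The shares of all tested genes were 11.7% and 6.29%. With equal medians 4 of the 41 were at least 2-fold higher in mitosis and 6 lower, and with quantile normalization 4 and 5. The tilt of this group thus depends on the scaling. The vitamin, choline and cofactor carriers had 3 of 17 above and 3 below, with a group median of -0.50 relative to the median gene. With equal medians 2 of the 17 were higher and 3 lower, and with quantile normalization 2 and 2.

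**Figure D1:**
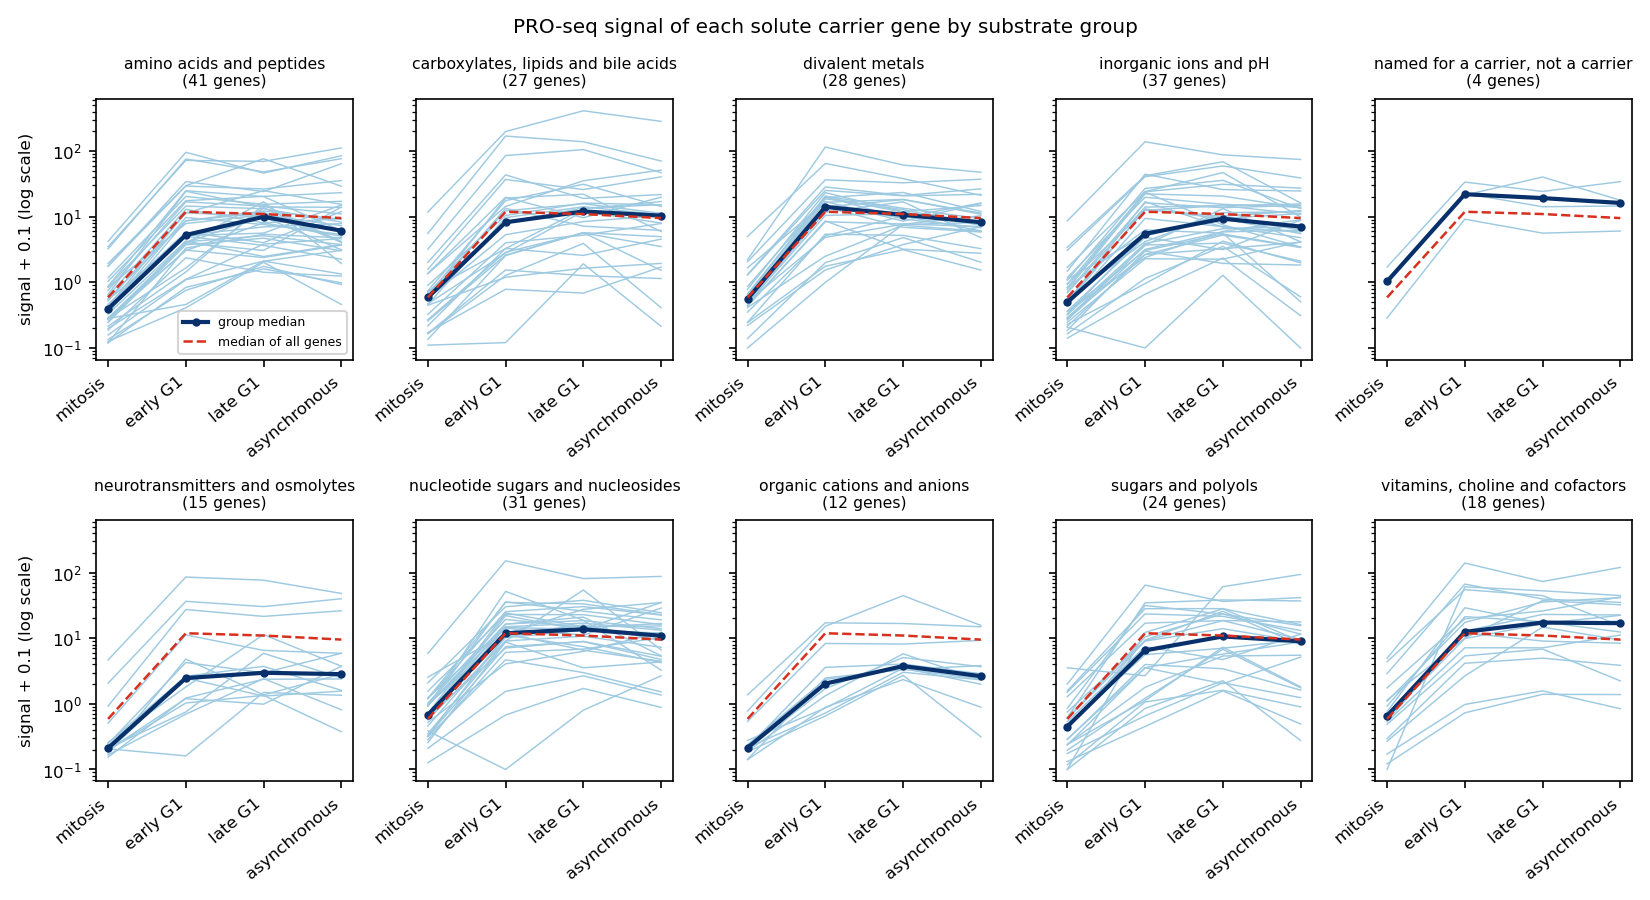
Normalized PRO-seq signal plus 0.1 (log axis) of each of the 237 solute carrier genes (thin lines) in mitosis, early G1, late G1 and the asynchronous column, in 10 substrate groups, with the group median (thick line) and the median of all 14861 genes (dashed line). Nearly every line climbs from mitosis to early G1, and every group median is lowest in mitosis.

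By 1 h after release, transcription of the carriers had returned. Of 230 members with a ratio, 227 were higher in early G1 than in mitosis by at least 2-fold (98.7%, against 99.3% of all tested genes). None was at least 2-fold lower, and 0.00692% of all tested genes were. The median log2 ratio was 3.92 for members and 4.21 for all genes, so the median member stood at -0.29 relative to the median gene. Relative to the median gene, 6 members were at least 2-fold above (2.61%, against 5.04% of all tested genes) and 53 at least 2-fold below (23.0%, against 17.3%). With equal medians 9 were higher and 37 lower (4.94% and 13.8% of all genes), and with quantile normalization 11 were higher and 23 lower (5.54% and 8.91% of all genes). With a minimum mean signal of 2.5, 3 of 182 members were above the median gene and 27 below it, against 3.50% and 10.7% of all genes.

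The 6 members at least 2-fold above the median gene were Slc35a2, Slc50a1, Slc39a13, Slc35e1, Slc5a6 and Slc15a4. Slc35e1, Slc5a6 and Slc15a4 were no longer past 2-fold with equal medians (0.91, 0.93 and 0.92), with quantile normalization (0.77, 0.78 and 0.78), with a pseudocount of 0.02 (0.96, 0.98 and 0.96) or with a minimum mean signal of 2.5 (0.92, 0.90 and 0.86). Slc35a2, which brings UDP-galactose into the Golgi for glycosylation, had a signal of 0.820 in mitosis and 51.6, 18.7 and 3.16 in early G1, late G1 and asynchronous cells. Slc39a13, a zinc carrier of the secretory pathway, had a signal of 2.11 in mitosis, 115 early and 61.2 late in G1, and 47.6 in asynchronous cells. Both genes had their highest signal in early G1. Slc5a6, the sodium-dependent carrier of biotin and pantothenate, had a signal of 0.660 in mitosis and 29.0, 16.7 and 22.2 in early G1, late G1 and asynchronous cells, and the lysosomal peptide and histidine carrier Slc15a4 had 0.556 in mitosis, 24.3 early and 14.0 late in G1, and 13.8 in asynchronous cells. Slc5a6 lies across Atraid, whose signal was 0.955 in mitosis and 21.3, 18.0 and 21.6 in early G1, late G1 and asynchronous cells, and Slc15a4 lies across Glt1d1, whose signal was 0.375 in mitosis, 6.82 early and 5.38 late in G1, and 6.93 in asynchronous cells.

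The divalent metal carriers stood 0.23 above the median gene in this step (0.24 with equal medians and 0.17 with quantile normalization). The organic cation and anion carriers stood at -1.04 relative to it as deposited, -0.53 with equal medians and -0.27 with quantile normalization. The size of their difference thus depends on the scaling, and their median mitotic signal was only 0.114. Slc5a2, the sodium-glucose carrier of the kidney known as SGLT2, did not follow the other members. Its signal was 3.44 in mitosis and 2.58, 60.8 and 93.7 in early G1, late G1 and asynchronous cells, so early G1 was the lowest of the 4 columns. The gene lies across Rusf1. Slc30a9 (1.57, 16.5, 18.3 and 10.8 in mitosis, early G1, late G1 and the asynchronous column) and the nucleotide sugar family gene Slc35g3 (2.45, 11.6, 27.5 and 34.9 in the same order) also returned less than the median gene, at -0.90 and -2.01 relative to it on the log2 scale.

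Between early and late G1 the members as a set stood further towards late G1 than all genes did. Of 234 members with a ratio, 58 were higher by at least 2-fold in late than in early G1 (24.8%, against 15.1% of all tested genes) and 11 were at least 2-fold lower (4.70%, against 7.52%). The median log2 ratio was 0.26 for members and -0.08 for all genes, a difference of 0.34. Higher genes were 84.1% of the members past 2-fold and 66.8% of all genes past it. With equal medians 67 were higher and 8 lower (89.3% higher, against 77.1%), and with quantile normalization 45 were higher and 16 lower (73.8% higher, against 56.6%). Of the 58 higher members, 17 were within 2-fold with quantile normalization, among them Slc13a3 (0.98), Slc26a9 (0.93) and Slc34a1 (0.94). The feeder marker sum given above was higher in late than in early G1, and its part in the result was not tested.

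Low genes were more often higher in late G1, among the members and in the whole table. Under a mean signal of 2.5, 23 of 49 members (46.9%) were higher by at least 2-fold in late G1, and 39.5% of all such genes were. Between 2.5 and the median gene's mean signal of 8.49, 21 of 82 members (25.6%) were, against 17.0% of all genes in that range. At or above the median gene, 14 of 103 members (13.6%) were, against 5.88%. In each of these ranges the share of members was above the share of all genes. From the low to the high range the members' median log2 ratio was 0.94, 0.34 and -0.11, against 0.74, 0.0077 and -0.27 for all genes. The median was thus below 0 for members at or above the median gene. In that range 5.83% of members were at least 2-fold lower in late G1, against 8.32% of all genes. With a minimum mean signal of 2.5, 35 of 185 members were higher, against 10.3% of all genes. Counting only the 198 members that overlap no other protein-coding gene, 49 were higher and 9 lower.

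**Figure D2:**
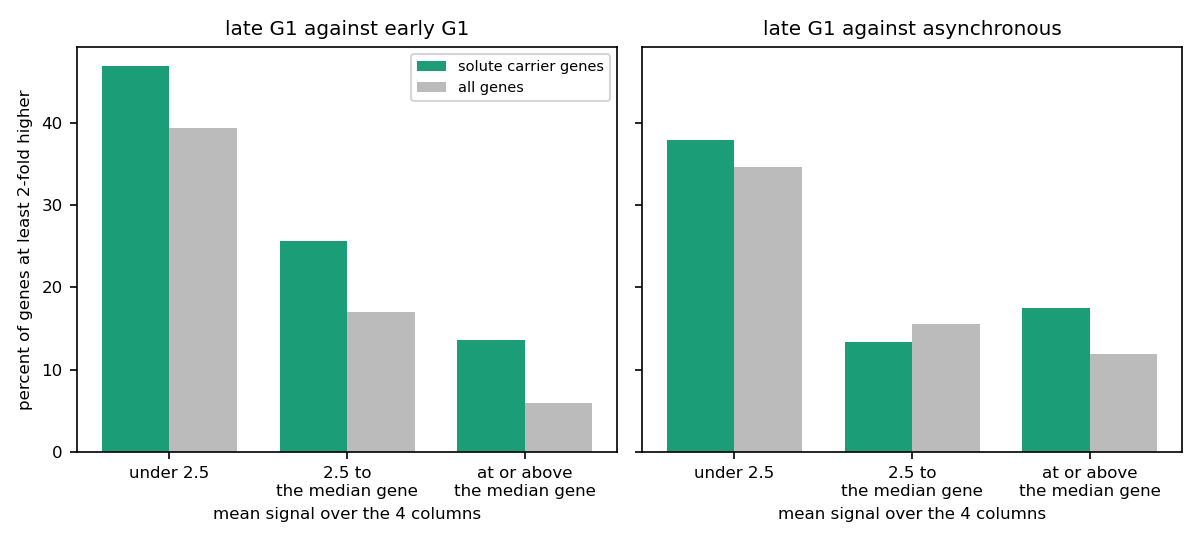
Percent of genes that were higher, by at least 2-fold, in late G1 than in early G1 (left) and than in asynchronous cells (right), by mean signal over the 4 columns, for solute carrier genes (green) and all genes (grey). Against early G1 the green bar is above the grey bar in all 3 ranges, 13.6% against 5.88% in the top range. Against asynchronous cells it is below in the middle range.

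The organic cation and anion carriers had the largest group median. Of 12 genes, 7 were higher by at least 2-fold in late G1 (58.3%, against 15.1% of all genes) and none was lower. The group median was 1.56 above the median gene (0.88 with quantile normalization). Slc22a7, an organic anion carrier of liver and kidney, had a signal of 0.675 in mitosis, 15.1 early and 44.5 late in G1, and 15.6 in asynchronous cells, a late over early log2 ratio of 1.55. The extrusion carrier Slc47a2, which passes organic cations out in exchange for protons, had 0.0902 in mitosis and 1.23, 5.69 and 2.21 in early G1, late G1 and asynchronous cells. Late G1 was the highest column for 9 of the 12. Slc22a17, a receptor for a siderophore-binding protein, and the lysosomal sialic acid exporter Slc17a5, differed little, with late over early ratios of -0.04 and -0.03. Most of this group had low signals in all columns.

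Among the 24 sugar and polyol carriers, 11 were higher by at least 2-fold in late G1 and none was lower. The higher share was 45.8%, against 15.1% of all genes. The group median was 0.74 above the median gene (0.53 with quantile normalization, where 8 were higher and 1 lower). Slc5a2 had the largest ratio of all members, 4.51, from 2.58 in early G1 to 60.8 in late G1, which is below its asynchronous 93.7. Slc5a1, the intestinal sodium-glucose carrier SGLT1, had a signal of 0.319 in mitosis, 9.24 early and 25.6 late in G1, and 7.82 in asynchronous cells, a ratio of 1.46. Unlike Slc5a2, it was higher in late G1 than in asynchronous cells. The urate carrier Slc2a9 (0.0968, 1.11, 6.67 and 1.65 in mitosis, early G1, late G1 and the asynchronous column) and the fructose carrier Slc2a5 (0.141, 1.68, 5.26 and 5.41 in the same order) were also higher by at least 2-fold in late than in early G1. Other members of the group did not pass 2-fold between early and late G1. The glucose-6-phosphate carrier of the endoplasmic reticulum Slc37a4 had a signal of 1.90 in mitosis and 64.3, 36.2 and 41.4 in early G1, late G1 and asynchronous cells. Slc2a8, an intracellular glucose carrier, had 1.18 in mitosis, 16.9 early and 18.5 late in G1, and 17.6 in asynchronous cells. Slc2a4, the insulin-responsive glucose carrier GLUT4, was lower in both G1 columns than in asynchronous cells, with 0.435 in mitosis and 7.33, 4.63 and 11.4 in early G1, late G1 and asynchronous cells. Slc2a6 is listed at 0 in mitosis and had 12.2 early and 28.0 late in G1, and 8.92 in asynchronous cells.

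**Figure D3:**
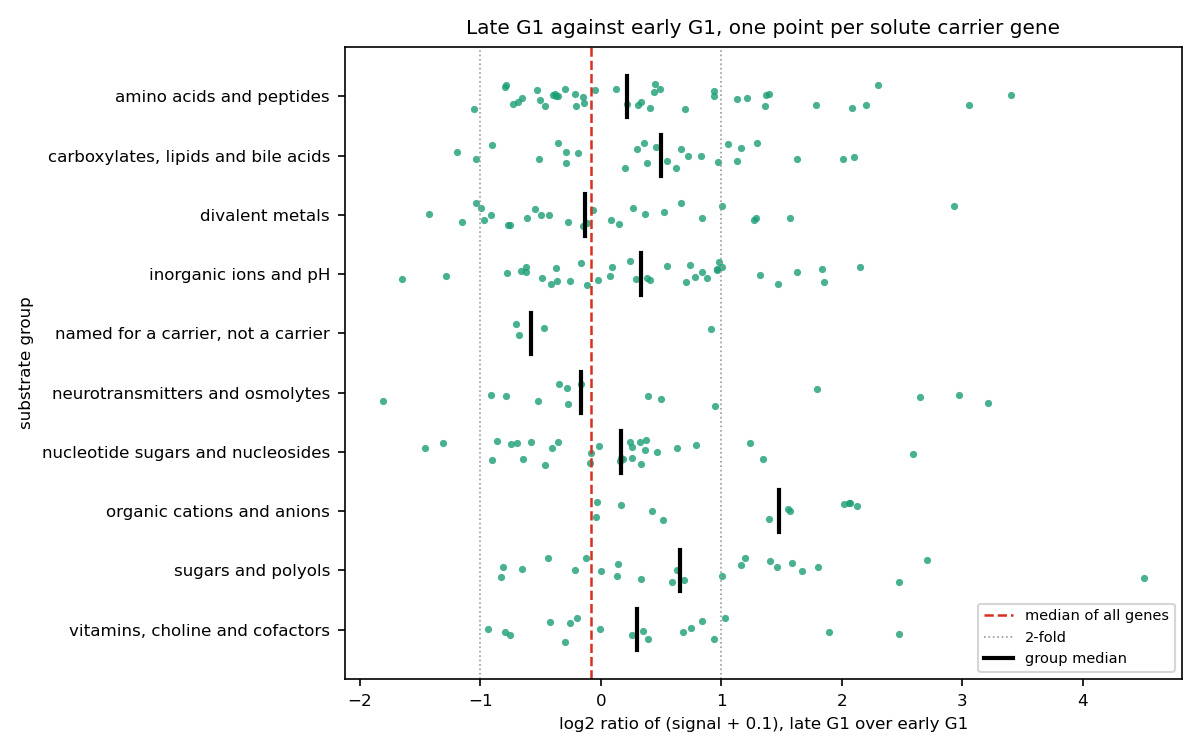
Log2 ratio of (signal + 0.1), late G1 over early G1, for each solute carrier gene with a ratio (points, spread vertically at random) by substrate group, with the group median (bar), the median of all genes (dashed line, -0.08) and the 2-fold limits (dotted lines). The organic ion and sugar groups have the rightmost medians, and the divalent metal group has its median at -0.13.

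The 41 amino acid and peptide carriers split by gene. In late over early G1, 11 were at least 2-fold higher and 1 lower (26.8% and 2.44%, against 15.1% and 7.52% of all genes). The group median was 0.30 above the median gene (0.10 with quantile normalization). The main importers known from growing cells were not among the 11. Slc3a2 was level between early and late G1, with a ratio of -0.05, and below its asynchronous signal in both. Its partner Slc7a5, which takes up leucine and other large neutral amino acids in exchange for glutamine, had a signal of 1.84 in mitosis, 29.2 early and 26.4 late in G1, and 35.5 in asynchronous cells. Slc1a5 was lower in late G1 than in asynchronous cells, with a log2 ratio of -1.41, past 2-fold. Its relative Slc1a4, an exchanger of alanine, serine and cysteine, had 0.442 in mitosis and 5.05, 5.53 and 15 in early G1, late G1 and asynchronous cells, also past 2-fold below asynchronous cells in both G1 columns.

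The sodium-coupled neutral amino acid carriers differed among themselves. Slc38a1, which takes up glutamine, had a signal of 4.11 in mitosis, 95.7 early and 46.1 late in G1, and 84.7 in asynchronous cells, a late over early ratio of -1.05. Slc38a2, the amino acid-starvation-induced member, had 3.14 in mitosis and 75.7, 48.1 and 76.5 in early G1, late G1 and asynchronous cells, a ratio of -0.65. Slc38a7, the lysosomal exporter of glutamine and asparagine, went the other way. Its signal was 1.67 in mitosis, 29.6 early and 76.4 late in G1, and 29.0 in asynchronous cells, a ratio of 1.36, and late G1 was its highest column by more than 2-fold. Slc38a3, a glutamine carrier best known from liver and glia, had the second largest ratio of all members, 3.40, at a signal of 0.114, 1.34, 15.1 and 4.06 in mitosis, early G1, late G1 and the asynchronous column.

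The cationic amino acid carriers also differed. Slc7a1, the general arginine and lysine importer, had a signal of 0.937 in mitosis and 17.4, 20.3 and 23.2 in early G1, late G1 and asynchronous cells, and no pair of its G1 and asynchronous values differed by 2-fold. Slc7a3, a second such importer, had 0.169 in mitosis, 3.90 early and 2.97 late in G1, and 13.9 in asynchronous cells, at least 2-fold lower in early and late G1 than in asynchronous cells. Slc7a3 lies across Snx12, which had a signal of 0.215 in mitosis and 8.82, 7.97 and 7.31 in early G1, late G1 and asynchronous cells. The glycine carrier Slc6a9 shared the low G1 signal, with 0.360 in mitosis, 5.71 early and 3.92 late in G1, and 11.9 in asynchronous cells. Slc3a1 was the reverse, higher by at least 2-fold in early and late G1 than in asynchronous cells, with 0.765 in mitosis and 24.8, 20.2 and 6.03 in early G1, late G1 and asynchronous cells. It lies across Prepl, which had 0.532 in mitosis, 19.8 early and 9.67 late in G1, and 9.18 in asynchronous cells.

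The 4 glutamate and aspartate carriers in the table had late over early ratios above 0 as deposited, and 2 of them passed 2-fold. Slc1a3, the astrocyte glutamate carrier, had a signal of 0.184 in mitosis and 3.90, 10.2 and 6.24 in early G1, late G1 and asynchronous cells. Slc1a7, of the retina, had 0.173 in mitosis, 3.88 early and 16.8 late in G1, and 1.84 in asynchronous cells, and Slc1a1, the neuronal and epithelial carrier, had 0.243 in mitosis and 8.49, 11.5 and 4.07 in early G1, late G1 and asynchronous cells. All 3 had their highest signal in late G1. The lysosomal carriers Slc36a1 (0.296, 9.63, 7.49 and 5.26 in mitosis, early G1, late G1 and the asynchronous column) and Slc38a9, an arginine sensor for the mTORC1 kinase (0.146, 4.05, 5.03 and 3.66 in the same order), stayed within 2-fold across the G1 and asynchronous columns.

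Carriers of carboxylates, lipids and bile acids had 7 of 26 genes higher by at least 2-fold in late than in early G1 and 2 lower. These are 26.9% and 7.69%, against 15.1% and 7.52% of all genes. The group median was 0.58 above the median gene. The monocarboxylate family held genes of both kinds. Slc16a1, the lactate and pyruvate carrier MCT1, had a signal of 1.27 in mitosis, 19.7 early and 9.55 late in G1, and 19.7 in asynchronous cells, and was lower in late G1 than in early G1 and asynchronous cells, with ratios of -1.04 and -1.04. Slc16a3, the lactate exporter MCT4, had 1.48 in mitosis and 36.9, 25.8 and 40.4 in early G1, late G1 and asynchronous cells. It lies across Csnk1d, which had 1.57 in mitosis, 30.4 early and 20.2 late in G1, and 24.6 in asynchronous cells. Slc16a8, known from the retinal pigment epithelium, had 11.7 in mitosis and 198, 412 and 284 in early G1, late G1 and asynchronous cells, a late over early ratio of 1.05. Slc16a4, a family member whose substrate is less certain, had 1.91 in mitosis, 43.3 early and 18.9 late in G1, and 21.7 in asynchronous cells, a ratio of -1.19, and it lies across Rbm15, which had 4.62 in mitosis and 66.8, 36.3 and 55.9 in early G1, late G1 and asynchronous cells. Slc16a11 was low in early G1, with 1.26 in mitosis, 14.3 early and 35.2 late in G1, and 51.2 in asynchronous cells.

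Further members of this group carry acetyl-CoA, fatty acids, citrate and bile acids. Slc33a1, which brings acetyl-CoA into the endoplasmic reticulum, had a signal of 0.512 in mitosis and 19.1, 22.0 and 5.84 in early G1, late G1 and asynchronous cells, higher by at least 2-fold in early and late G1 than in asynchronous cells. It lies across Gmps, which had 0.390 in mitosis, 10.4 early and 7.27 late in G1, and 6.24 in asynchronous cells. The fatty acid family genes Slc27a3 (3.10, 85.3, 105 and 46.8 in mitosis, early G1, late G1 and the asynchronous column) and Slc27a4 (0.641, 17.5, 31.2 and 14.2 in the same order) were higher by at least 2-fold in late G1 than in asynchronous cells, though both were within it with equal medians (0.96 and 0.92). The citrate importer Slc13a5 had 0.622 in mitosis and 3.17, 13.1 and 16.9 in early G1, late G1 and asynchronous cells, with its lowest value outside mitosis in early G1, and the liver bile acid importer Slc10a1 had 5.45 in mitosis, 169 early and 139 late in G1, and 70.5 in asynchronous cells.

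Neurotransmitter and osmolyte carriers had 4 of 15 genes higher by at least 2-fold in late than in early G1 and 1 lower. These are 26.7% and 6.67%, against 15.1% and 7.52% of all genes. With quantile normalization 3 were higher and 3 lower. The group median was -0.08 relative to the median gene. The median was 0.03 with quantile normalization, so its direction depends on the scaling. The 3 genes given next stayed within 2-fold outside mitosis. Slc6a8, the creatine importer, had a signal of 4.56 in mitosis and 85.4, 76.5 and 48.0 in early G1, late G1 and asynchronous cells. Slc6a6, the taurine importer, had 0.824 in mitosis, 27.3 early and 21.4 late in G1, and 26.1 in asynchronous cells, and the vesicular nucleotide carrier Slc17a9 had 1.96 in mitosis and 36.4, 30.2 and 39.9 in early G1, late G1 and asynchronous cells. The betaine and GABA carrier Slc6a12 was one of the 4 higher genes, with 0.159 in mitosis, 1.71 early and 11.3 late in G1, and 3.64 in asynchronous cells. The vesicular carriers of acetylcholine, Slc18a3 (0.0967, 1.10, 0.889 and 3.64 in mitosis, early G1, late G1 and the asynchronous column), and of glutamate, Slc17a7 (0.0757, 4.71, 1.27 and 2.73 in the same order), were at least 2-fold lower in late G1 than in asynchronous cells.

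Carriers of nucleotide sugars and nucleosides, 31 genes, were near the table's middle. Of 30, 3 were at least 2-fold higher and 2 lower in late than in early G1 (10% and 6.67%, against 15.1% and 7.52% of all genes). The group median was 0.25 above the median gene. Slc35a2 was higher than in asynchronous cells by 3.99 in early G1 and 2.53 in late G1 on the log2 scale, the highest early ratio of any member. Slc29a4, an equilibrative carrier that also moves monoamines, had a signal of 0.474 in mitosis and 8.93, 54.2 and 6.55 in early G1, late G1 and asynchronous cells, a late over early ratio of 2.59. Its relative Slc29a1, the main equilibrative nucleoside carrier ENT1, had 1.14 in mitosis, 14.5 early and 13.6 late in G1, and 34.9 in asynchronous cells, at least 2-fold lower in early and late G1 than in asynchronous cells. Slc28a1, a sodium-coupled pyrimidine nucleoside carrier, had 0.856 in mitosis and 14.1, 11 and 28.7 in early G1, late G1 and asynchronous cells, and so shared the low G1 signal of Slc29a1. The purine nucleobase carrier Slc43a3 is listed at 0 in early G1, and had 0.287 in mitosis, 0.701 in late G1 and 2.57 in asynchronous cells.

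The carriers that feed glycosylation in the Golgi and endoplasmic reticulum differed among themselves. Slc35b2, which imports the sulfate donor PAPS, had a signal of 5.76 in mitosis, 151 early and 80.9 late in G1, and 87.4 in asynchronous cells. Slc35d1, a carrier of UDP-glucuronic acid for cartilage proteoglycans, had 0.578 in mitosis and 16.2, 20.9 and 5.30 in early G1, late G1 and asynchronous cells, at least 2-fold above asynchronous cells in both G1 columns. Slc35a1, the CMP-sialic acid carrier, had 0.864 in mitosis, 11.4 early and 15.8 late in G1, and 9.14 in asynchronous cells, within 2-fold in all 3 columns outside mitosis. Slc35g3 was low in early G1, with 11.6 against 34.9 in asynchronous cells.

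Of the 28 divalent metal carriers, 14 had their highest signal in early G1, 9 had it in late G1 and 5 had it in asynchronous cells. That is 50% of the group in early G1, against 44.1% of all genes and 50% of the 42 Slc25 genes. In late over early G1, 5 were at least 2-fold higher and 3 lower (17.9% and 10.7%, against 15.1% and 7.52% of all genes). The group median was -0.05 relative to the median gene. In early G1 over asynchronous cells, 9 were at least 2-fold higher and 4 lower (32.1% and 14.3%, against 17.7% and 9.53% of all genes). With equal medians 4 were higher and 4 lower (14.3% each, against 8.72% and 14.9%), and with quantile normalization 3 and 4 (10.7% and 14.3%, against 9.32% and 11.1%). Those 9 were 5 genes of the zinc importer family Slc39, 3 of the zinc exporter family Slc30 and the copper importer Slc31a1. The plasma membrane importer Slc39a1, which is not among the 9, had a signal of 0.462 in mitosis and 17.0, 8.46 and 15.8 in early G1, late G1 and asynchronous cells. The importer Slc39a9 had 0.520 in mitosis, 20.4 early and 9.12 late in G1, and 6.69 in asynchronous cells, a late over early ratio of -1.15, and its start site lies 35 bp from that of Erh, which runs the other way and had 1.77 in mitosis and 49.8, 32.9 and 37.9 in early G1, late G1 and asynchronous cells. Slc30a7, which loads zinc into the Golgi, had 0.347 in mitosis, 14.0 early and 6.80 late in G1, and 5.75 in asynchronous cells.

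The exporter Slc30a1 was level outside mitosis, with a signal of 1.19 in mitosis and 25.1, 20.7 and 21.8 in early G1, late G1 and asynchronous cells. The metallothionein Mt1, another gene of the metal response, had 8.64 in mitosis, 128 early and 214 late in G1, and 159 in asynchronous cells, and the factor Mtf1 had 0.577 in mitosis and 22.7, 12.2 and 13.0 in early G1, late G1 and asynchronous cells. The members with a metal response element in the promoter had 13 of 61 genes higher by at least 2-fold in late than in early G1 (21.3%), and members without one had 24 of 105 (22.9%). Among all genes of the table with a promoter window, the shares were 12.4% of 3826 with the element and 14.0% of 6594 without. The plasma membrane copper importer Slc31a1 had a signal of 0.571 in mitosis, 19.7 early and 11.6 late in G1, and 7.94 in asynchronous cells, and the iron importer Slc11a2 had 0.684 in mitosis and 23.2, 11.8 and 14.7 in early G1, late G1 and asynchronous cells. Both had their highest signal in early G1. The importer of zinc, iron and manganese Slc39a14 was instead highest in late G1, with 0.408 in mitosis, 11.6 early and 16.8 late in G1, and 4.70 in asynchronous cells. The magnesium carrier Slc41a1 had 1.22 in mitosis and 28.3, 21.0 and 26.5 in early G1, late G1 and asynchronous cells, within 2-fold outside mitosis. Slc11a1, the metal carrier of macrophage phagosomes, is listed at 0 in mitosis and had 0.898 early and 7.51 late in G1, and 8.06 in asynchronous cells.

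**Figure D4:**
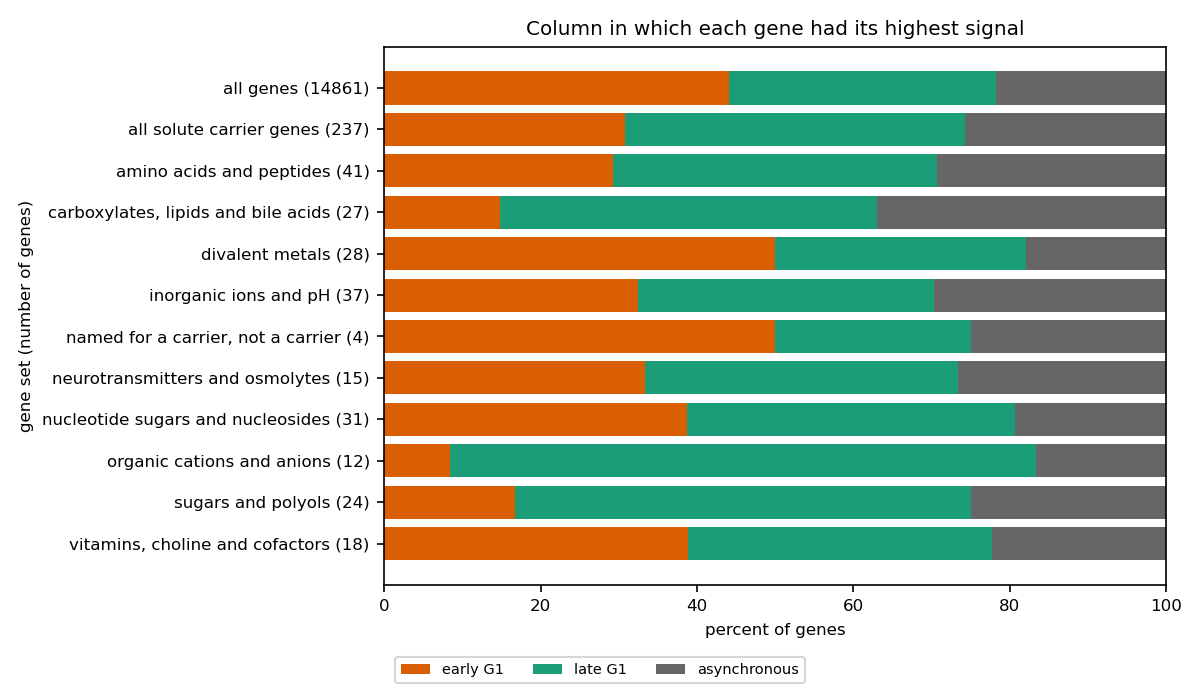
Percent of genes whose highest signal was in early G1, late G1 or asynchronous cells, for all 14861 genes, all 237 solute carrier genes and the 10 substrate groups (numbers of genes in brackets). Early G1 was the highest column for 44.1% of all genes and 30.8% of solute carrier genes, and late G1 for 34.1% and 43.5%. The 1 gene of the table with its highest signal in mitosis is too few to be seen.

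Carriers of inorganic ions and pH had 7 of 36 genes higher by at least 2-fold in late than in early G1 and 2 lower. These are 19.4% and 5.56%, against 15.1% and 7.52% of all genes. The group median was 0.42 above the median gene. With quantile normalization 4 were higher and 3 lower (11.1% and 8.33%, against 10.8% and 8.25% of all genes), and the median was 0.51. The phosphate importer Slc20a1 had a signal of 8.54 in mitosis, 139 early and 87.6 late in G1, and 74.4 in asynchronous cells. The endosomal exchanger Slc9a8 had 1.59 in mitosis and 23.9, 31.1 and 27.2 in early G1, late G1 and asynchronous cells, within 2-fold outside mitosis. The sodium, potassium and chloride cotransporter Slc12a2, which raises cell volume, had 0.400 in mitosis, 16.8 early and 6.83 late in G1, and 5.75 in asynchronous cells, a late over early ratio of -1.29. Slc12a5, the potassium and chloride cotransporter KCC2 of neurons, had 2.98 in mitosis and 40.5, 59.2 and 38.9 in early G1, late G1 and asynchronous cells.

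A second set of ion carriers was higher in both G1 columns than in asynchronous cells. Slc26a2, the sulfate importer needed for cartilage, had a signal of 0.729 in mitosis, 24.0 early and 47.0 late in G1, and 9.82 in asynchronous cells. Slc4a11, a carrier needed by the corneal endothelium, had 3.32 in mitosis and 41.9, 68.7 and 16.1 in early G1, late G1 and asynchronous cells. Slc5a5, the iodide importer of the thyroid, had 0.827 in mitosis, 23.5 early and 7.43 late in G1, and 3.35 in asynchronous cells, highest in early G1, while the other two were highest in late G1. The kidney phosphate carriers Slc34a1 (0.0410, 0.559, 2.25 and 0.211 in mitosis, early G1, late G1 and the asynchronous column) and Slc34a3 (0.727, 6.20, 5.51 and 0.406 in the same order) were likewise at least 2-fold above asynchronous cells in both, at low signals. In early G1 over asynchronous cells, Slc26a2 (0.96) and Slc34a1 (0.81) were within 2-fold with equal medians, and Slc26a2 (0.88), Slc34a1 (0.72) and Slc4a11 (0.98) with quantile normalization. Slc5a5 in late G1 over asynchronous cells was within it under both (0.92 and 0.88). Slc34a1 lies across Pfn3.

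Vitamin, choline and cofactor carriers had 3 of 18 genes higher by at least 2-fold in late than in early G1 and none lower. The higher share was 16.7%, against 15.1% of all genes, and 7.52% of all genes were lower. The group median was 0.38 above the median gene (0.04 with quantile normalization). The folate carriers were both below asynchronous cells in early G1. Slc19a1, the reduced folate carrier, had a signal of 0.518 in mitosis and 9.76, 16.5 and 18.2 in early G1, late G1 and asynchronous cells. Slc46a1, the proton-coupled folate carrier, had 0.994 in mitosis, 17.3 early and 35.5 late in G1, and 41.4 in asynchronous cells, and lies across Sarm1, which had 0.454 in mitosis and 9.86, 11.5 and 9.17 in early G1, late G1 and asynchronous cells. Slc19a2, the thiamine carrier of the same family as Slc19a1, was by contrast above asynchronous cells in early G1 by 1.82 and in late G1 by 1.52.

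A heme and a riboflavin carrier were low in early G1. Slc48a1, which exports heme from lysosomes, had a signal of 1.04 in mitosis, 9.95 early and 37.3 late in G1, and 32.2 in asynchronous cells, a late over early ratio of 1.90. It lies across Hdac7, which had 0.185 in mitosis and 1.66, 4.44 and 5.60 in early G1, late G1 and asynchronous cells, also higher in late than in early G1. Slc52a2, a riboflavin importer, had 1.65 in mitosis, 19.7 early and 25.9 late in G1, and 42.3 in asynchronous cells. Its start site lies 97 bp from that of Fbxl6, which runs the other way and had 0.324 in mitosis and 21.6, 13.4 and 14.9 in early G1, late G1 and asynchronous cells. The choline carrier Slc44a1 had 0.824 in mitosis, 21.2 early and 17.7 late in G1, and 12.3 in asynchronous cells, and its relatives Slc44a2 and Slc44a3 had 0.594, 12.7, 22.9 and 22.5 and 4.85, 140, 73.0 and 120 in mitosis, early G1, late G1 and the asynchronous column. None of the 3 differed by 2-fold between late G1 and asynchronous cells. The lysosomal carrier Slc46a3 is listed at 0 in mitosis and had 60.5 early and 52.7 late in G1, and 44.5 in asynchronous cells.

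Also caught by the naming rule were 4 genes that carry the name of a carrier without being one. Slc9a3r1 and Slc9a3r2 are scaffold proteins that anchor carriers at the membrane, and they had signals of 0.979, 22.6, 14.1 and 14.5 and 0.883, 21.3, 40.2 and 17.7 in mitosis, early G1, late G1 and the asynchronous column. Slc7a6os, named for lying opposite Slc7a6, had 1.61 in mitosis and 33.6, 24.2 and 34.1 in early G1, late G1 and asynchronous cells, and Slc4a1ap, an adaptor protein named for Slc4a1, had 0.186 in mitosis, 9.07 early and 5.52 late in G1, and 5.95 in asynchronous cells. None of the 4 differed by 2-fold between early and late G1.

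**Figure D5:**
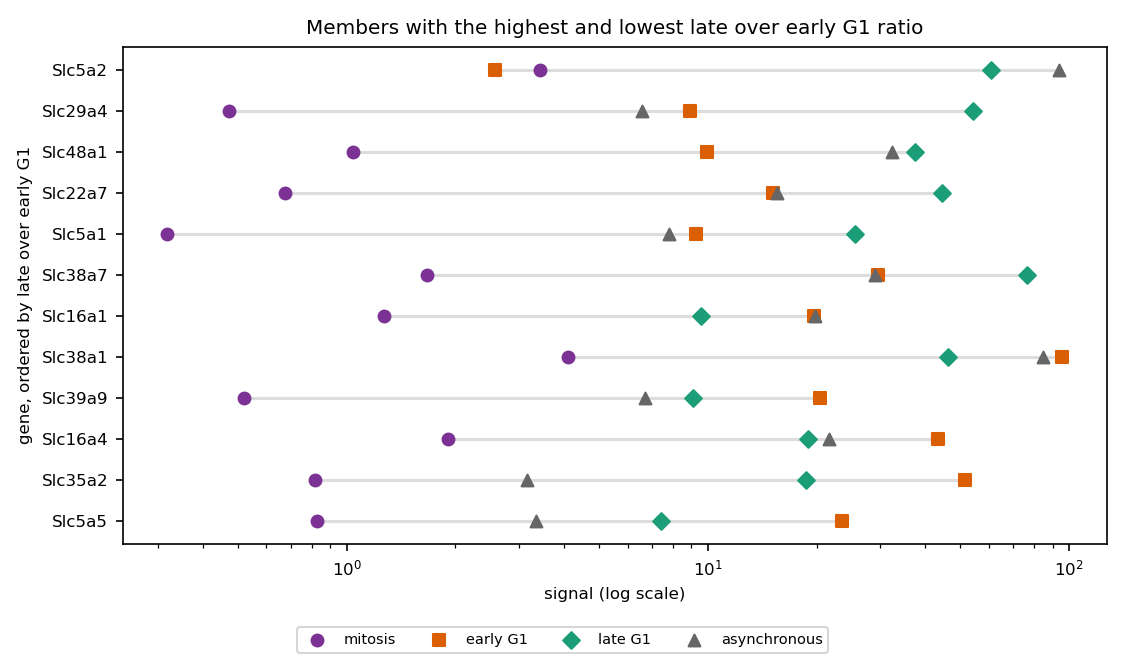
Normalized signal (log axis) in mitosis, early G1, late G1 and the asynchronous column for the 6 members with the highest and the 6 with the lowest late over early G1 ratio, among members at or above the median gene's mean signal with no column at 0. Slc5a2 goes from 2.58 in early G1 to 60.8 in late G1, and Slc5a5 from 23.5 to 7.43.

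The 11 members at least 2-fold lower in late than in early G1 were Slc17a7, Slc5a5, Slc35a2, Slc30a3, Slc35b4, Slc12a2, Slc16a4, Slc39a9, Slc38a1, Slc30a7 and Slc16a1. All are described above apart from Slc30a3, which loads zinc into synaptic vesicles and had 0.340 in mitosis and 8.52, 3.10 and 2.67 in early G1, late G1 and asynchronous cells, and the UDP-sugar carrier Slc35b4, which had 0.156 in mitosis, 8.66 early and 3.44 late in G1, and 4.25 in asynchronous cells. With equal medians Slc38a1 (-0.93), Slc16a1 (-0.92) and Slc30a7 (-0.92) were within 2-fold, and with quantile normalization Slc38a1 (-0.90), Slc16a1 (-0.89), Slc30a7 (-0.98) and Slc16a4 (-0.96). The 11 come from 6 substrate groups, and 3 of them are zinc carriers.

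Late G1 was also compared with asynchronous cells. Of 235 members, 48 were higher by at least 2-fold in late G1 (20.4%, against 16.9% of all tested genes) and 14 were at least 2-fold lower (5.96%, against 5.14%). The median log2 ratio was 0.40 for members and 0.21 for all genes. Higher genes were 77.4% of members past 2-fold and 76.7% of all genes past it. With equal medians 40 were higher and 21 lower (65.6% higher, against 62.1%), and with quantile normalization 34 were higher and 24 lower (58.6% higher, against 52.5%). With a minimum mean signal of 2.5, 29 of 185 were higher, against 13.4% of all genes. The 14 lower members included 4 amino acid carriers, Slc7a3, Slc6a9, Slc1a4 and Slc1a5, and 3 carriers of nucleosides or nucleobases, Slc29a1, Slc28a1 and Slc43a3. The largest differences above asynchronous cells among members at or above the median gene were those of Slc29a4 (3.03), Slc35a2 (2.53), Slc26a2 (2.25), Slc4a11 (2.09), Slc35d1 (1.96) and Slc33a1 (1.89). Neurotransmitter, vitamin and carboxylate carriers had median ratios above 0 as deposited and below 0 under equal medians and under quantile normalization. The median of all genes moved as well, from 0.21 to 0.01 and -0.04. Relative to it, in the same order, vitamin carriers stood at -0.07 each time and carboxylate carriers at -0.03, -0.03 and -0.07. Neurotransmitter carriers stood at -0.06, -0.06 and -0.40. The amino acid carriers went from 0.41 as deposited to -0.04 under quantile normalization, and from 0.20 to 0.01 relative to the median gene.

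Early G1 against asynchronous cells divided the members evenly as deposited. Of 234, 40 were higher by at least 2-fold in early G1 (17.1%, against 17.7% of all tested genes) and 40 at least 2-fold lower (17.1%, against 9.53%). The median log2 ratio was 0.11 for members and 0.30 for all genes, a difference of -0.20. Higher genes were 50% of members past 2-fold and 65% of all genes past it. With equal medians 20 were higher and 58 lower (25.6% higher, against 36.9%), and with quantile normalization 22 were higher and 42 lower (34.4% higher, against 45.6%). Of the 40 higher members, 20 were within 2-fold with equal medians and 18 with quantile normalization. The members' median ratio was -0.21 with equal medians and -0.18 with quantile normalization, so its sign depends on the scaling. The median of all genes moved too, to -0.02 and 0.05. Relative to the median gene, members stood at -0.20 as deposited, -0.20 with equal medians and -0.23 with quantile normalization. The lower members were 24.8% with equal medians (against 14.9% of all genes) and 17.9% with quantile normalization (against 11.1%). Among the 40 lower members the largest difference was that of Slc5a2, -5.13. In the range at or above the median gene, 17 of 103 members were higher (16.5%, against 18.4% of all genes in it) and 8 lower (7.77%, against 5.24%). Both comparisons use the same asynchronous column. Of 234 members, 21 were at least 2-fold above it in both G1 columns (8.97%, against 7.37% of all genes) and 7 at least 2-fold below it in both (2.99%, against 2.62%).

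The authors' deposited table also gives each gene 1 of 4 temporal classes. It places 83 members (35.0%) in the Transient class, against 24.7% of all genes, and 54 (22.8%) in the Gradual class, against 15.4%. It places 59 members (24.9%) in the Early_Spike class, against 33.6%, and 41 (17.3%) in the Early_Plateau class, against 26.3%. In the authors' deposited table, the Transient members had median signals of 0.177 in mitosis, 2.77 early and 7.94 late in G1, and 4.06 in asynchronous cells. Gradual members had medians of 0.321, 4.11, 6.33 and 10.2 in the same order in the authors' deposited table, so their highest column was the asynchronous one. The classes rest on the same values as the ratios above and are no separate evidence.

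Other transporters give a comparison for the late G1 shift. The 42 Slc25 genes had 2 genes at least 2-fold higher and 5 lower in late than in early G1, with a median of -0.15 relative to the median gene. The 33 ABC and SLCO transporter genes had 6 higher and 2 lower, with a median of 0.34. The higher and lower shares were 4.76% and 11.9% for Slc25 genes and 18.2% and 6.06% for ABC and SLCO genes. Those of all genes were 15.1% and 7.52%. The members' difference from the Slc25 genes was not tested, since each group has 1 column. The sets also differ in level. The median signal early in G1 and in asynchronous cells was 17.1 and 12.6 for Slc25 genes and 8.93 and 8.06 for members. It was 5.56 and 6.41 for ABC and SLCO genes. Members with TATAAA in the promoter had 8 of 16 genes higher by at least 2-fold in late than in early G1 (50%), and members without it had 29 of 150 (19.3%). Among all genes of the table with a promoter window, the shares were 18.4% of 711 with the motif and 13.0% of those without. The members with the motif had a median mean signal of 4.70 and those without it 6.65, and low genes were more often higher in late G1. Slc26a9, Slc12a3 and Slc13a2, shown above, had late over early ratios of 1.63, 2.15 and 0.39, and Slc3a1 had -0.29.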

How the data were processed

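PRO-seq was run on 8 libraries in 4 groups, and the deposited table gives 1 combined signal per gene and group. Per the submitters' processing notes, the tools named are cutadapt, Bowtie2, Picard and SAMtools and the builds GRCm38 and mm10, with no versions. The sources used here do not say how the authors normalized the deposited signal, combined libraries, counted by strand or treated gene length. The text column of the authors' deposited table holds other values, their temporal classes.

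The members and lists were chosen with earlier results of these data known. Ratios are log2((signal + 0.1)/(signal + 0.1)) over genes with a mean signal of at least 0.5, which leaves out 47 genes, with ratios that use a column at 0 left out (431 genes have one). Because the table has 1 column per group, the planned test per library was not possible, and counts past 2-fold are set beside the share of all genes. Named genes are the 6 highest and 6 lowest ratios of each comparison among members at or above the median level, the 3 highest asynchronous signals per substrate group and 20 fixed genes, not all of which are reported here. Other members named are examples chosen after their values were seen. Substrate groups come from textbook knowledge. Where a member lies across another gene, reads of the pair may not be told apart. RefSeq gave symbols for 237 of 237 members and promoters for 166. Python 3.11.15, pandas 2.3.3, numpy 2.4.6 and matplotlib 3.10.9 were used, and the ratios were tested on simulated data. Alternatives were other pseudocounts, other minimums, equal medians, quantile normalization, genes at 0 kept and overlapping members left out.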

Additional observations from a re-analysis of the deposited data

How the results depend on the processing

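The table holds 1 combined column per group, so leaving out each replicate and the fit with the replicate number as a block were not run. No paired analysis was possible because the columns carry no replicate number. Depth is unknown, and values near 0 limit the mitotic ratios most. For the cases below the cause was not tested, except that a higher minimum leaves fewer genes. Leaving out overlapping members, or applying no minimum, moved no count by over 1.5 times.

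In mitosis against asynchronous cells, equal medians gave 26 members at least 2-fold higher and 19 lower, and quantile normalization 24 and 15. The shares of all genes are given above. Members above the median gene numbered 26 with equal medians, 23 with quantile normalization and 16 with a minimum of 2.5, and 23 lay below it with equal medians. For these counts relative to the median gene, the share of all genes is given above only with the minimum of 2.5. The others are not set against all genes and do not show whether members differ from them. The members' median relative to the median gene was -0.084 with a pseudocount of 0.02, -0.089 with a minimum of 2.5, -0.11 with equal medians and -0.11 with quantile normalization.

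In early G1 against mitosis, equal medians gave 9 higher and 37 lower and quantile normalization 11 and 23, with a median of -0.14 relative to the median gene under quantile normalization. Members above the median gene numbered 12 with a pseudocount of 0.5, 3 with a minimum of 2.5, 11 with equal medians and 10 with quantile normalization, and those below it 27, 32 and 24 under the last 3. Here too the shares of all genes relative to the median gene are given above only with the minimum of 2.5. The other counts do not show whether members differ from all genes. Keeping genes at 0 made 1 member lower.

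In late against early G1, 35 members were higher with a minimum of 2.5, and the relative median was 0.24 with quantile normalization. In late G1 against asynchronous cells, 29 were higher with a minimum of 2.5 and 24 lower with quantile normalization, and the relative median was 0.082 with that minimum and 0.081 with quantile normalization. In early G1 against asynchronous cells, 20 were higher with equal medians and 22 with quantile normalization. These are 8.55% and 9.40% of members, against 8.72% and 9.32% of all genes.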

Other observations

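Genes that work with solute carriers were taken from lists and are given as values. Basigin (Bsg), the chaperone that brings the lactate carriers Slc16a1 and Slc16a3 to the plasma membrane, had a signal of 2.26 in mitosis and 73.8, 75.1 and 51.6 in early G1, late G1 and asynchronous cells, and its relative Emb had 0.108 in mitosis, 3.09 early and 3.48 late in G1, and 3.26 in asynchronous cells. Bsg was thus level between early and late G1, where Slc16a1 had a late over early log2 ratio of -1.04. The sodium pump, which maintains the gradient used by sodium-coupled carriers, has the beta subunit genes Atp1b1, with 2.49 in mitosis and 51.6, 26.9 and 38.3 in early G1, late G1 and asynchronous cells, and Atp1b3, with 1.06 in mitosis, 27.1 early and 16.5 late in G1, and 15.7 in asynchronous cells. Both genes had their highest signal in early G1. Of the 7 genes of this list in the table, 1 was at least 2-fold higher in late than in early G1, and 0 were lower. These are 14.3% and 0%, against 15.1% and 7.52% of all genes, so the higher share was near that of all genes.

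Regulators of carrier genes were in the table for 11 genes. Atf4, the activator of amino acid carrier genes under amino acid shortage, had 23.5 in mitosis and 348, 278 and 468 in early G1, late G1 and asynchronous cells. Tfeb and Tfe3, regulators of lysosomal genes, had 0.362, 5.25, 7.19 and 11.8 and 1.45, 44.2, 41.0 and 34.0 in mitosis, early G1, late G1 and asynchronous cells. Srebf1, the activator of lipid synthesis genes, had 1.68 in mitosis, 45.6 early and 50.9 late in G1, and 18.8 in asynchronous cells, above asynchronous cells in both G1 columns by over 2-fold. Mlx, the partner of the glucose-sensing factors, had 2.14 in mitosis and 162, 193 and 103 in early G1, late G1 and asynchronous cells.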
